A study of Mus musculus with 2 samples.

Results

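Epithelial cells that transcribed Nkx2-1 were followed among eYFP-labelled cells of the Isl1-Cre lineage, which had been sorted from mouse embryos at E13.5. They were chosen by transcripts detected in each cell: unique molecular identifiers (UMIs, 1 per captured transcript) of at least 2 of 5 epithelial genes (Epcam, Cdh1, Krt8, Krt18 and Cldn6) and at least 1 of Nkx2-1, with fewer than 2 of Cdh5, Pecam1, Ptprc and Elavl3 detected. After the filter on genes and mitochondrial UMIs, 66 of 6272 cells met this rule. Of these, 42 were among 2783 control cells and 24 among 3489 mutant cells. The remaining epithelial cells, which met the same rule except that they had no Nkx2-1 UMI, numbered 215 in the control and 386 in the mutant.

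Both groups carried Isl1-Cre and R26R-eYFP, so that cells of the Isl1 lineage were labelled in each, and the mutant also carried Pik3caH1047R, a form of the catalytic subunit p110α of phosphoinositide 3-kinase that is active without its usual stimulus. Each group was 1 library made from 3 pooled embryos, of tissue above the liver that the labels name pharyngeal arch. The sort kept cells in which the Isl1 promoter had driven Cre, so only the labelled portion of an organ could be seen. With 1 library per genotype there was no replicate and no test between genotypes, and the intervals below are 95% counting intervals, which do not cover variation among embryos or between dissections and libraries. Barcodes of 12 kept cells occurred in both libraries, but none of these belonged to the 66 cells. The control cells held a median of 27061.5 UMIs (6990 to 57555) and the mutant cells 20023.5 (4574 to 44617).

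Nkx2-1 encodes a homeodomain transcription factor that marks the lung and thyroid fields of the ventral foregut endoderm, and is also used by parts of the forebrain. In the lung, buds branch as fibroblast growth factor from the mesenchyme acts on epithelial tips that carry Sox9 and Etv5 and begin to make surfactant protein C (Sftpc), while Sox2 marks the proximal airway. In the thyroid primordium, Nkx2-1 acts together with Pax8, Foxe1 and Hhex, and thyroglobulin (Tg) follows later. Isl1 itself was low in the selected cells, with UMIs in 10 of 42 control and 8 of 24 mutant cells, and Pik3ca was at 22.5 counts per 1000000 UMIs (CPM, used here for this unit alone) in the control and 34.5 in the mutant (log2 ratio 0.62, interval -0.33 to 1.53).

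The lung and thyroid markers followed the label in most control cells. In the mutant 19 of 24 cells held neither Sftpc nor the thyroid pair Pax8 and Foxe1, so there the cells are best taken as epithelial cells with Nkx2-1. Epcam was present in all 42 control cells and in 23 of 24 mutant cells. Sftpc was found in 28 of 42 control cells (66.7%, 95% limits 50.5 and 80.4) and 4 of 24 mutant cells (16.7%, limits 4.74 and 37.4). As a measure of free RNA, Sftpc had a UMI in 11 of 960 control muscle cells (1.15%, median 24589.5 UMIs) and 1 of 701 mutant muscle cells (0.143%, median 21710 UMIs), and Nkx2-1 in 1.04% and 0.856% of them. Muscle cells were those with Myod1 or Myog and none of the 5 epithelial genes. This choice leaves out barcodes with free RNA of those genes, so shares from muscle cells may lie too low as a measure of free RNA. Per cell, Nkx2-1 ran from 1 to 38 UMIs in the control (median 8.5) and from 1 to 14 in the mutant (median 3), and 2 control and 4 mutant cells met the rule with a single Nkx2-1 UMI. Just outside the rule, 4 control and 7 mutant cells had Nkx2-1 with exactly 1 epithelial gene, of which none in the control and 1 in the mutant held Sftpc.

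The cells were split by lung genes (Sftpc or Sox9) and thyroid genes (Pax8 or Foxe1). In the control, 34 cells had lung genes alone, 5 had both and 3 had neither. In the mutant the same classes held 11, 1 and 12 cells. Of the cells with lung genes alone, 6 of 34 in the control and 7 of 11 in the mutant entered on Sox9 without Sftpc, 2 of the former and 3 of the latter on 1 Sox9 UMI. Sox9 is no gene of the lung alone, and had a UMI in 195 of 960 control muscle cells (20.3%) and 221 of 701 mutant muscle cells (31.5%). No cell had UMIs of thyroid genes without those of lung genes, because every cell with Pax8 and Foxe1 also held Sox9. A count of 0 allows a share of such cells of up to 7.14% in the control and 12.5% in the mutant. The 5 control cells and 1 mutant cell with both genes are therefore described as Pax8/Foxe1 cells, a grouping made after the values were seen.

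**Figure D1:**
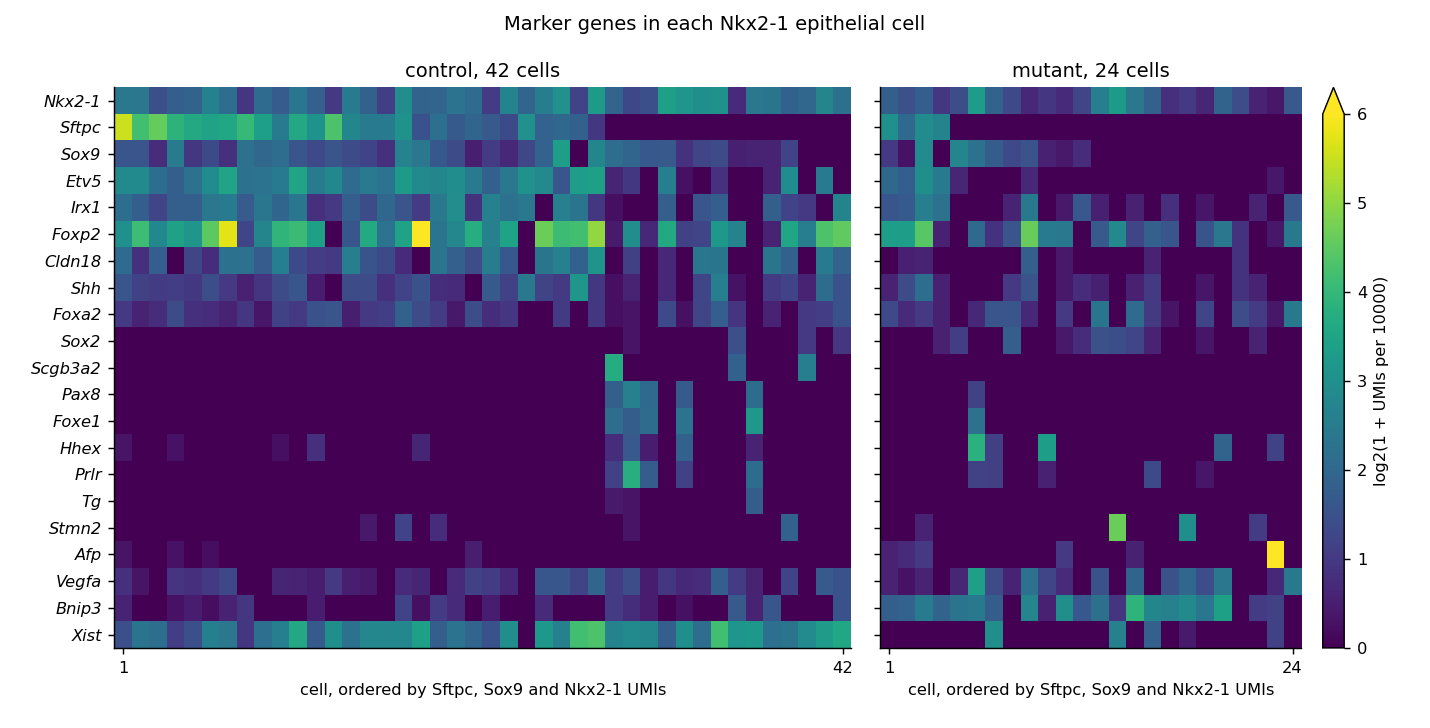
Each column is 1 Nkx2-1 epithelial cell (42 control, 24 mutant) and each row a gene, coloured by log2 of 1 plus UMIs per 10000 with the scale ending at 6. Sftpc fills 28 control and 4 mutant columns, Pax8 and Foxe1 share 5 control columns and 1 mutant column, and Bnip3 is present in 21 cells of each library.

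The start regions of some lung genes that were high in the control cells are shown for the letters to which Nkx2-1 family proteins are known to bind. RefSeq start regions (build GRCm38.p6) were matched for 8 of 14 genes, namely the 10 genes highest over other epithelial cells in the control with Sftpb, Sftpc, Pax8 and Nkx2-1. The letters CTCAAG and CAAGTG, which share CAAG, were searched on both strands in the 250 bases before each start. Of 32851 start regions of that length, 13.3% held CTCAAG and 11.6% held CAAGTG. A match in 3 of 10 regions is a description of letters and shows no binding. Capitals mark the matches, and the region of Nkx2-1 itself, with none, is shown for comparison.
Sftpb, chr6:72304360-72304609, plus strand: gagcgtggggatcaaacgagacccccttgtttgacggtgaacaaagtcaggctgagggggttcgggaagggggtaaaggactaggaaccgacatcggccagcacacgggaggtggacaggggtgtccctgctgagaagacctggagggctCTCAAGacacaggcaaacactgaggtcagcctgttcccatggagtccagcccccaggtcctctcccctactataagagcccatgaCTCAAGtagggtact
Sfta2, chr17:35649458-35649707, plus strand: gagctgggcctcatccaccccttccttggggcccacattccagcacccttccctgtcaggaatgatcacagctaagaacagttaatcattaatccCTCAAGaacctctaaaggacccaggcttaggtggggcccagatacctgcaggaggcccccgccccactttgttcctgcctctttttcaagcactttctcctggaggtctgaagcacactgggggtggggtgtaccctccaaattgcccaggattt
Cldn18, chr9:99710064-99710313, minus strand, the second of 2 starts: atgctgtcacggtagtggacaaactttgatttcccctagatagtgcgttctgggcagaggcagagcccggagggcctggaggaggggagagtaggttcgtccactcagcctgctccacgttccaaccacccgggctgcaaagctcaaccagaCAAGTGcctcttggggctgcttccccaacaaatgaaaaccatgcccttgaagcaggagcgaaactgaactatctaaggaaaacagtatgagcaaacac
Nkx2-1, chr12:56536909-56537158, minus strand: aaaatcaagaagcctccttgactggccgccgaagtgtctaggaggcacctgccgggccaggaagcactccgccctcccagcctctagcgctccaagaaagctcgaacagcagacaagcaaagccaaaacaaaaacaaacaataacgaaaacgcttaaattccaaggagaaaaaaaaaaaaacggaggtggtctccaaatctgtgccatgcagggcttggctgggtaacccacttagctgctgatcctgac
The matches end 95 and 10 bases before the start of Sftpb, 150 bases before that of Sfta2 and 93 bases before that of Cldn18.

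Sftpc, the surfactant protein that marks distal lung epithelium (chr14:70520949-70524081, minus strand), ran from 0 to 182 UMIs in the 42 control cells, with a median of 6.5. In the mutant, 4 cells held 14, 14, 13 and 12 UMIs and the other 20 held none. Every mutant cell thus lay far below the highest control cells, although the ranges overlapped. In control cells with Sftpc, other tip genes were found with it. All 28 of them held Etv5, 27 held Sox9 and 27 held Irx1, and none held Sox2 or Pax8, which allows a share of up to 10.7% for cells with a UMI of each and sets no limit on cells that transcribe it below detection. The 4 mutant cells with Sftpc all held Etv5, Irx1, Foxp2 and Shh, 3 held Sox9 and 1 held Sox2.

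Among the 20 genes of a lung tip list, the control cells with Sftpc had UMIs of between 10 and 18 (median 14), and all 42 control cells between 4 and 18 (median 13). The 24 mutant cells had UMIs of between 3 and 13 (median 7.5). Muscle cells, measured the same way, had UMIs of between 0 and 10 (median 3) in the control and between 0 and 9 (median 4) in the mutant. Of the genes on the list, Foxp2 had a UMI in 48.8% of control and 51.8% of mutant muscle cells and Etv5 in 39.5% and 22.3%, so a UMI of either does not mark lung, whereas Cldn18 had one in 0.208% of control muscle cells and in none of 701 mutant ones. Foxp2, a forkhead repressor of the lung epithelium, was the most abundant gene of the list in both libraries, although 419 of its 1555 control UMIs came from 1 cell. Slc34a2, a phosphate transporter of mature alveolar type 2 cells, had no UMI in either library.

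Cells with neither Sftpc nor the Pax8/Foxe1 pair numbered 9 in the control and 19 in the mutant. In the control, 8 of the 9 held Foxa2, a pioneer factor of the endoderm, and 7 held Irx1. Sox2, the proximal airway gene, was in 3 of them, and the secretory gene Scgb3a2 in 2, with 12 and 10 UMIs. In the mutant, 13 of 19 held Foxa2, 10 held Irx1, 10 held Sox2 and 3 held Etv5. Over all selected cells, Sox2 was found in 4 of 42 control and 11 of 24 mutant cells, at 9.98 and 42.2 CPM (log2 ratio 2.08, interval 1.00 to 3.23). Sox2 is also a gene of neural cells, and 2 of the 11 mutant cells, with 2 UMIs each, held the forebrain gene Six3. The airway list of 11 genes summed to 140 CPM in the control, led by Scgb3a2, and 61.3 in the mutant, led by Sox2. The control sum leaned on 1 Pax8/Foxe1 cell with 68 UMIs of Scgb3a2, and the sums without that cell were not compared. In the control the basal cell genes Trp63 and Krt15 had 28 and 16 UMIs in 3 and 9 cells, of which 25 and 7 lay in that same cell. The club cell gene Scgb1a1, the ciliated cell gene Foxj1, Cyp2f2 and the ionocyte gene Foxi1 were at 0 in the control. In the mutant Scgb3a2, Scgb1a1 and Foxi1 were among the genes at 0.

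Compared with the other epithelial cells of the control, the Nkx2-1 cells had higher summed values of lung tip genes. UMIs were summed over cells within a library and expressed as CPM, and a list counts only its genes with at least 20 UMIs over both sides, so that a gene present in the Nkx2-1 cells alone could enter only as higher. Of the 20 lung tip genes 17 entered, 16 were higher and 15 were at least 2-fold higher. Their median log2 ratio was 2.61, against -0.12 over all 13042 genes, of which 4.20% were at least 2-fold higher and 19.0% at least 2-fold lower. Per cell, the lung tip list had a median of 41.9 UMIs per 10000 in the Nkx2-1 cells (5.27 to 119). In the other epithelial cells of the control the median was 8.26 (0.4 to 195). The ranges thus overlapped, the highest cell was not a Nkx2-1 cell, and 5 of the other cells held Sftpc. The same rule of choice sets the cells compared, so these values are a description.

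Cldn18, a tight junction claudin with a lung form, had 222 UMIs in 33 of 42 Nkx2-1 cells and 1 UMI in the 215 other cells (log2 ratio 9.83, interval 7.34 to 15.14). Sfta2, a surfactant-associated protein, had 142 UMIs in 31 cells against 3 in 3 cells (log2 ratio 7.60, interval 6.02 to 9.89). Sftpb, surfactant protein B, had 35 UMIs in 16 cells against none, at least 47.8-fold higher when 3 counts are set for the group at 0. Cells with these transcripts were the majority for Cldn18 and Sfta2 and the minority for Sftpb.

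Genes known from the branching lung are given next. Shh, the hedgehog ligand that lung epithelium sends to its mesenchyme, stood at 109 CPM in 37 of 42 cells against 5.48 (log2 ratio 4.31, interval 3.71 to 4.97). Foxp2 stood at 1293 against 82.7 (log2 ratio 3.97, interval 3.81 to 4.13), and Etv5, a transcription factor downstream of fibroblast growth factor, at 391 against 35.5 (log2 ratio 3.46, interval 3.21 to 3.72). Foxa2 was 17.4-fold higher. Fgfr2, the receptor of that signal, was 1.79-fold higher, and 178 of 215 other epithelial cells also held it. As a list, fibroblast growth factor signalling was not higher: of 13 genes 6 had higher values, 2 at least 2-fold, and 3 were at least 2-fold lower (median log2 ratio -0.19). Over all genes in this comparison 4.20% were at least 2-fold higher and 19.0% at least 2-fold lower. The other 6 genes with the largest ratios were Cym, Sfta3-ps, Ndnf, Nexmif, Lin7a and Mal2. Cym, a protease gene known from the stomach of young mammals, had 145 UMIs in 18 cells against 1, of which 56 lay in 1 cell.

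On the low side lay genes of other epithelia and of non-epithelial cells. All 11 oral and stratifying genes with enough UMIs were at least 2-fold lower (median log2 ratio -4.92), where 19.0% of 13042 genes were. The other epithelial cells held more UMIs in all, 4923887 against 1202623. A gene near 0 in the Nkx2-1 cells could thus pass the limit through the others alone and enter only as lower. This count is therefore a description. Krt5, a keratin of basal cells, stood at 4.16 CPM against 333. Upk3b, a mesothelial gene, Chga, a neuroendocrine gene, and Oc90, an inner ear gene, had no UMI in the Nkx2-1 cells and 895, 690 and 1333 in the others. The remaining 6 lowest genes by the same rule, Ctnna2, Fbln2, Myl4, Cryab, Igf1 and Tnni1, had between 1 and 3 UMIs in the Nkx2-1 cells. In the mutant, 8 of the 10 highest control genes had enough UMIs. All 8 were again at least 2-fold higher, where 6.26% of 13820 genes were. A gene near 0 in the other cells reaches the limit mainly through the Nkx2-1 cells, so one that was low there could drop out uncounted. Of the 10 lowest control genes, 7 were at least 2-fold lower in the mutant, where 12.6% of all genes were. Igf1 and Oc90 went the other way through 1 cell each, with 63 of 76 and 50 of 50 UMIs. The mutant lung tip list had a median log2 ratio of 0.93, with 6 of 15 genes at least 2-fold higher.

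**Figure D2:**
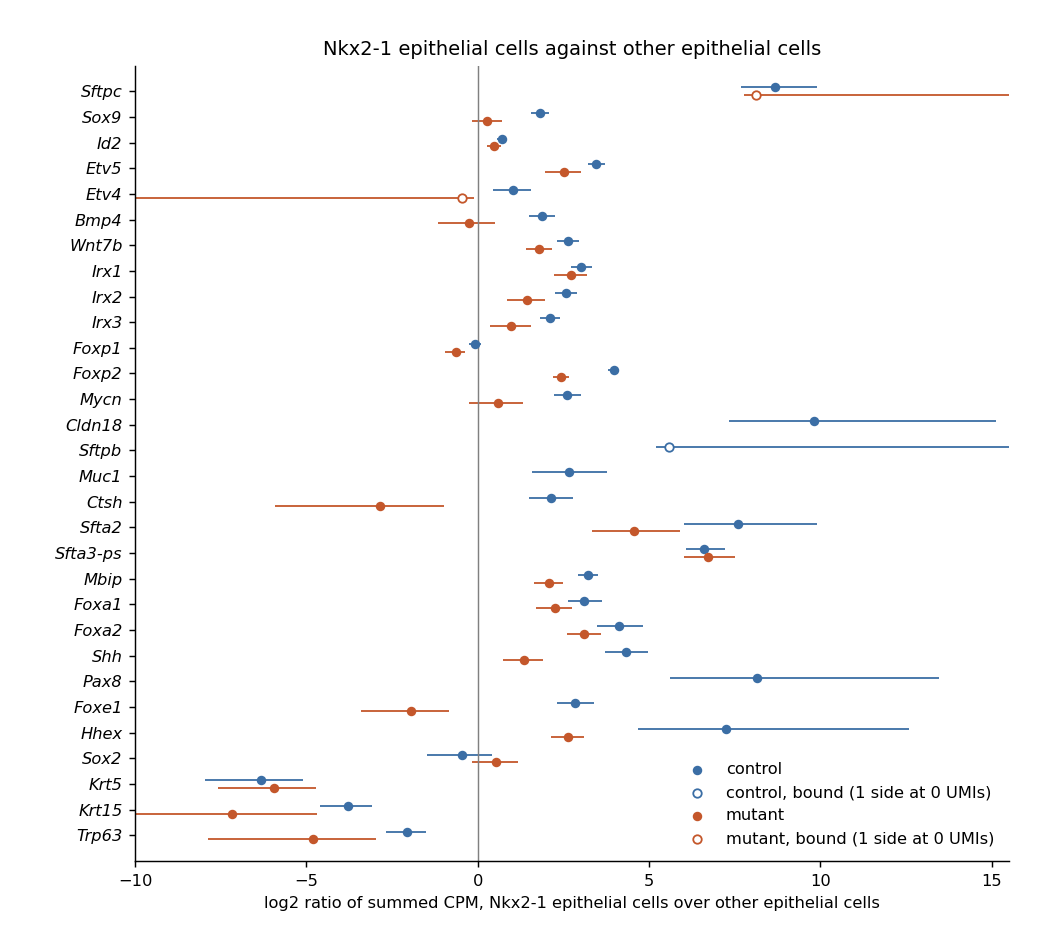
Log2 ratio of CPM in Nkx2-1 epithelial cells over other epithelial cells, by gene (vertical axis), for the control (blue) and the mutant (orange), with 95% counting intervals and open symbols for bounds with 1 side at 0 UMIs. Sftpc, Cldn18, Sfta2 and Sfta3-ps lie far to the right in the control, and Krt5 far to the left in both libraries.

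The other epithelial cells were themselves mixed, and their mixture differed between libraries. At least 2 of the stratifying genes Krt5, Krt14, Krt15 and Trp63 were found in 65 of 215 control and 162 of 386 mutant cells, at least 2 of 5 mesothelial genes in 29 of 215 and 35 of 386 cells, at least 4 of 12 muscle or heart muscle genes in 32 and 38 cells, and at least 5 of 8 neuron genes in 22 and 14 cells. The endoderm factors Foxa1 or Foxa2 marked 24 of 215 control and 85 of 386 mutant cells. Of these Foxa-marked cells, 14 of 24 and 43 of 85 also held the stratifying genes, and 7 of 24 and 37 of 85 held Foxe1, which is thus no gene of the thyroid alone. Against these Foxa-marked cells alone, a comparison added after the data were seen, the lung tip median was 2.57 in the control (15 of 17 genes at least 2-fold higher) and 3.04 in the mutant (8 of 13). Of all genes in that comparison, 6.25% were at least 2-fold higher and 8.39% lower in the control, and 8.34% and 11.4% in the mutant. Liver genes (at least 5 of 7) were found in 25 of the 85 Foxa-marked mutant cells and in none of the 24 control cells, which allows up to 12.5%.

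The 5 control cells with Pax8 and Foxe1, transcription factors that with Nkx2-1 specify the thyroid, held 14, 21, 16, 11 and 7 UMIs of Pax8 and 19, 10, 17, 19 and 17 of Foxe1. Hhex, a further thyroid factor, was in each of them with 4, 9, 2, 13 and 1 UMIs. Prlr, the prolactin receptor, had 7, 52, 12, 6 and 7 UMIs there and none in the 34 cells with lung genes alone. All 5 thus carried Hhex and Prlr beside Pax8 and Foxe1, which chose them. In the mutant Prlr was in 5 of 24 cells and Pax8 and Foxe1 in only 1, so Prlr was not confined to Pax8/Foxe1 cells. Tg was in 3 of the 5, with 1, 2 and 5 UMIs. Of 13 listed thyroid genes 9 had UMIs in the 42 control cells, and the iodide transporter Slc5a5, the anion exchanger Slc26a4, the oxidase Duox2 and the deiodinase Dio1 were at 0. These cells were deep, with a median of 48935 UMIs against 27061.5 in the cells with lung genes alone.

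Between these 5 cells and the 34 control cells with lung genes alone, the thyroid list, which holds the genes that chose the cells, summed to 1015 and 13.8 CPM. The lung tip list, which holds Sftpc and Sox9 of the choice, was lower. Its median log2 ratio was -3.09 (13 of 17 genes at least 2-fold lower), against 0.03 over all 7880 genes, of which 9.92% were at least 2-fold lower and 9.19% at least 2-fold higher. Irx1, an Iroquois factor of the lung epithelium, stood at 4.59 CPM against 276, and Etv5 at 36.7 against 485 (log2 ratio -3.72, interval -4.94 to -2.73). Irx2, Irx3, Wnt7b and Gata6 were also among the 10 lowest genes, each with 2 or 3 UMIs in the 5 cells, as were Afap1l1, Erbb4, Prxl2a and Thbs1. Among the highest, Col25a1, Plscr2 and Rmst were found in all 5 cells and Parm1 in 4. The high values of Col1a1 and Col3a1 came from 1 cell with 66 and 58 of their 68 and 59 UMIs, and that cell held all 9 listed mesenchyme genes. Lum came from that cell too, and Tenm2 and Trp63 from 1 other cell. The latter cell held 25 UMIs of Trp63, a basal cell factor, 68 of the airway gene Scgb3a2, 9 of Napsa, an aspartic protease of the lung, and 6 of Sftpb beside its Pax8 and Foxe1, so that its markers were not those of the thyroid alone.

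The single mutant cell of this kind held 2 UMIs of Pax8, 6 of Foxe1, 21 of Hhex, 14 of Nkx2-1 and 2 of Prlr. Over all selected cells the thyroid list summed to 195 CPM in the control, led by Foxe1, and 119 in the mutant, led by Hhex. Hhex was found in 10 control and 5 mutant cells, and 20 of its 50 mutant UMIs lay in a cell with neither Pax8 nor Foxe1. The number of cells was too small to give a share beyond 11.9% of the control (interval 3.98 to 25.6) and 4.17% of the mutant (interval 0.105 to 21.1), and these intervals overlapped.

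Genes around Nkx2-1 (ENSMUSG00000001496, chr12:56531958-56536908, minus strand) were examined because they lie in the same chromosomal neighbourhood. Sfta3-ps, a noncoding transcript whose start lies 7.48 kb downstream of that of Nkx2-1, stood at 578 CPM in control Nkx2-1 cells against 5.89 in other epithelial cells, and at 243 against 2.29 in the mutant. It was detected in 41 of 42 control and 21 of 24 mutant cells. Mbip, which encodes a protein of a histone acetyltransferase complex and starts 191 kb downstream, stood at 270 against 28.8 in the control (log2 ratio 3.23, interval 2.94 to 3.52) and 115 against 27.2 in the mutant (log2 ratio 2.08, interval 1.65 to 2.50). Both genes followed Nkx2-1 in each library.

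The antisense transcript Gm26973, which starts within 1.57 kb of the Nkx2-1 start, had 32 UMIs in 20 control cells against 3 in others. Whether the counting used strand is not given in the sources used here, and how well its reads were kept apart from those of Nkx2-1 was not checked. Farther downstream, at 284 kb, the noncoding transcript Gm19990 had 18 UMIs in 13 control Nkx2-1 cells against 1 in the other epithelial cells, and 6 against none in the mutant, too few for the limit of 20 UMIs. The more distant genes had smaller ratios. Brms1l, 701 kb downstream, had a log2 ratio of 0.53 in the control (interval 0.06 to 0.99) and 0.92 in the mutant, and Ralgapa1 had 0.05 and -0.21. Upstream, Prps1l3 had 0.16 and -0.21 and Mipol1 0.16 and -0.67. Pax9, a pharyngeal pouch gene 155 kb upstream, was near absent in control Nkx2-1 cells (0.832 CPM against 14.8), and its 28 UMIs in the mutant lay in 4 cells.

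**Figure D3:**
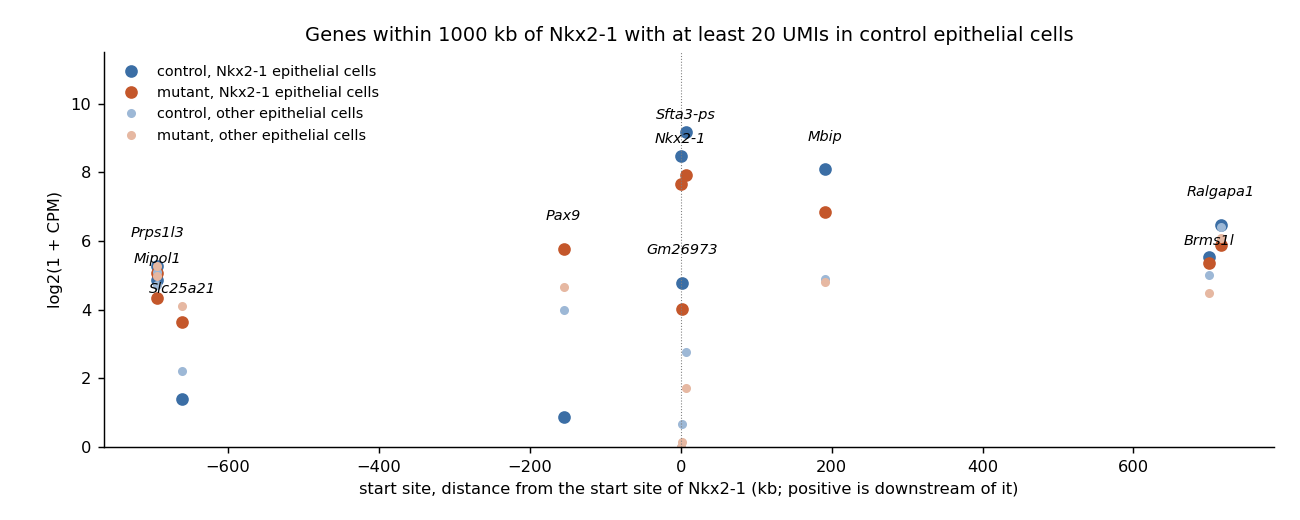
Log2 of 1 plus CPM (vertical axis) against the distance of each start site from that of Nkx2-1 in kb (horizontal axis, positive downstream), for genes with at least 20 UMIs in control epithelial cells. Large points are Nkx2-1 cells and small points other epithelial cells, and these part at Sfta3-ps and Mbip in both libraries.

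Nkx2-1 cells made up 42 of 257 epithelial cells in the control (16.3%, interval 12.0 to 21.4) and 24 of 410 in the mutant (5.85%, interval 3.79 to 8.58). After each cell was thinned to 5000 UMIs, leaving out 61 control and 173 mutant kept cells that were shallower, the shares were 19.8% (34 of 172) and 4.71% (14 of 297). Among epithelial cells with Xist and no Y-linked UMI they were 16.8% and 1.53%, the latter from 2 of 131 cells. Epithelial cells with Foxa1 or Foxa2 took close shares of the epithelium, 24.9% and 25.4%, but Nkx2-1 cells were 40 of 64 of them in the control (62.5%, interval 49.5 to 74.3) and 19 of 104 in the mutant (18.3%, interval 11.4 to 27.1). Without cells with at least 5 of 7 liver genes, the last share was 18 of 78 (23.1%).

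Lung mesenchyme differed in the same direction. Cells with at least 2 of Wnt2, Tbx4, Tbx5 and Foxf1 and fewer than 2 epithelial genes were 18.4% of kept control cells and 4.50% of kept mutant cells, and 10.5% and 2.35% after thinning. The sex of the cells also differed. Called from Xist and Y-linked transcripts, 41 of 42 control Nkx2-1 cells were female-like and 17 of 24 mutant cells male-like, and among other epithelial cells 203 of 215 and 129 of 386 were female-like. Genotype, the dissection of each pool and the sex of its embryos cannot be told apart with 1 library each.

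**Figure D4:**
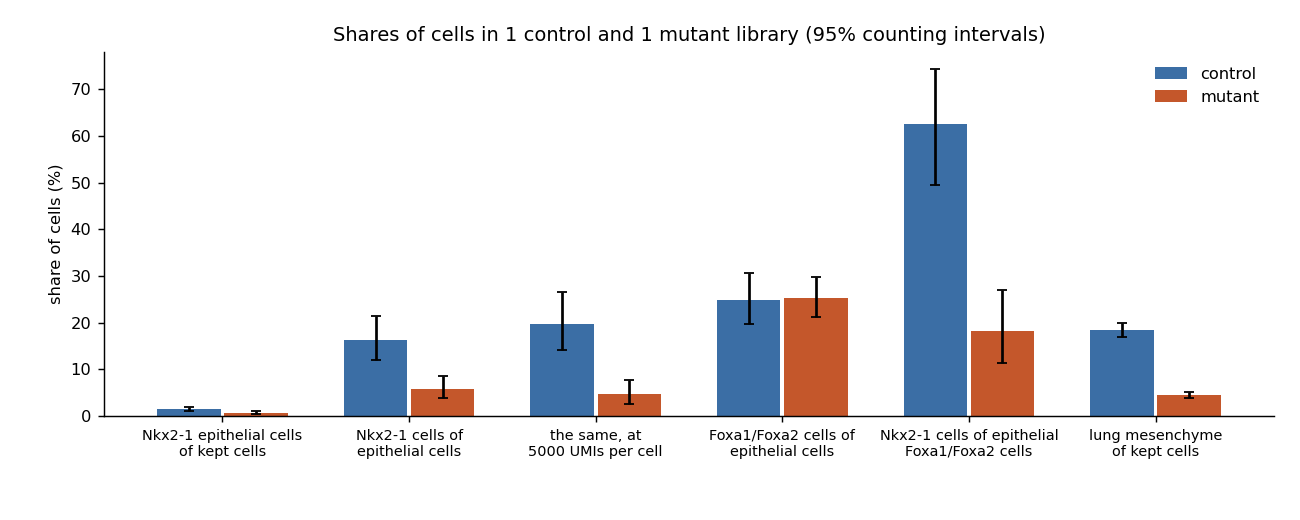
Shares of cells in percent in the control (blue) and mutant (orange) library, with 95% Clopper-Pearson counting intervals. Nkx2-1 cells of the epithelium were 16.3% and 5.85%, while Foxa1/Foxa2 cells were 24.9% and 25.4%.

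Within the Nkx2-1 cells, genes of the lung tip were lower in the mutant. All 17 lung tip genes with enough UMIs had lower values and 13 were at least 2-fold lower, with a median log2 ratio of -1.65 against -0.11 over all 9282 genes, of which 8.97% were at least 2-fold lower and 6.05% at least 2-fold higher. The control cells held 1202623 UMIs in all and the mutant cells 521748, so a gene of low level could pass the limit of 20 UMIs through the control alone and then enter only as lower. Summed over the list, the control cells ran from 5.27 to 119 UMIs per 10000 (median 41.9) and the mutant cells from 2.10 to 62.1 (median 14.3), with 1 of 24 above the control median. The ranges overlapped, but nearly all mutant cells lay in the lower part of the control range. These values mix the level in a cell with the number of cells of each kind, because fewer mutant cells held Sftpc.

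Sftpc stood at 664 CPM in the control and 102 in the mutant (log2 ratio -2.71, interval -3.14 to -2.31). Etv5 stood at 391 and 84.3 (log2 ratio -2.21, interval -2.69 to -1.76), and was found in 36 of 42 and 7 of 24 cells. Cldn18 stood at 185 and 19.2 (log2 ratio -3.27). Sox9 and Irx1 had smaller ratios of -1.16 and -1.17, and Nkx2-1 itself, used in the choice of cells, one of -0.84. Of 13 genes of fibroblast growth factor signalling 9 had enough UMIs, and all 9 had lower values. Of these 5 were at least 2-fold lower, where 8.97% of all genes were. Spry1, a feedback inhibitor of that pathway, stood at 84.0 and 15.3, and Fgfr2 at 355 and 328. Of 9 surfactant genes 5 had enough UMIs and were at least 2-fold lower, where 8.97% of all genes were, and the other 4 were not compared. For both lists, as for the lung tip list, a gene could pass the limit through the control alone and then enter only as lower. These counts are therefore a description.

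Cells with lung genes alone numbered 34 in the control and 11 in the mutant. Among the 11 were a cell with all 50 Oc90 UMIs and a cell with 20 Hhex UMIs, neither with Foxa2 or Irx1, and the cell with all 55 Cck UMIs, and their part in the ratios of this class was not tested. The lung tip list holds Sftpc and Sox9, which chose this class, and Sftpc, which chose the next. In this class all 16 lung tip genes with enough UMIs had lower values and 9 were at least 2-fold lower (median -1.18, against -0.12 over all 7811 genes, of which 11.8% were at least 2-fold lower and 4.72% at least 2-fold higher). Among cells with Sftpc (28 control, 4 mutant), a comparison added after the data were seen, 13 of 16 had lower values and 4 were at least 2-fold lower (median -0.70, against -0.13 over all 6732 genes, of which 15.8% were at least 2-fold lower and 4.58% at least 2-fold higher). There Irx1 and Shh had log2 ratios of 0.02 (interval -0.56 to 0.56) and 0.18 (interval -0.68 to 0.94), and Etv5 -0.47 (interval -0.97 to -0.01). In other epithelial cells the lung tip list had a median of -0.11.

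Genes induced by the hypoxia factor HIF were higher in the mutant. Of 28 listed targets 23 had enough UMIs, 22 were higher and 17 at least 2-fold higher, with a median log2 ratio of 1.40, where 6.05% of all 9282 genes were at least 2-fold higher and the median was -0.11. Per cell, the list summed to between 5.91 and 20.3 UMIs per 10000 in the control (median 11.98) and between 6.07 and 139 in the mutant (median 33.4). Of the 24 mutant cells 23 lay above the control median and 15 above the highest control cell. The exception in the other direction was Gbe1, a glycogen branching enzyme (log2 ratio -0.42, interval -1.49 to 0.55).

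Bnip3, a mitophagy receptor induced by HIF, had 0 to 10 UMIs per cell in the control (median 0.5) and 0 to 30 in the mutant (median 7), that is 41.6 and 387 CPM (log2 ratio 3.22, interval 2.77 to 3.70). Ddit4, an inhibitor of mTOR signalling, stood at 95.6 and 661 (log2 ratio 2.79, interval 2.48 to 3.11), and Slc2a1, the glucose transporter GLUT1, at 89.0 and 332 (log2 ratio 1.90, interval 1.54 to 2.26). Ddit4 was detected in 30 of 42 control and 22 of 24 mutant cells, and Slc2a1 in 37 of 42 and 22 of 24, so that the detection of Slc2a1 was close. Vegfa, the vascular growth factor, stood at 75.7 and 142 (log2 ratio 0.91, interval 0.44 to 1.37), but at 67.7 and 28.2 in cells with Sftpc, where the mutant had only 3 UMIs (log2 ratio -1.26, interval -3.58 to 0.36).

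Glycolysis genes had the same direction. Of 16 with enough UMIs 15 were higher and 8 at least 2-fold higher (median 1.00), against the same 6.05% of all genes. Among cells with Xist and no Y-linked UMI, only 2 of them mutant, the median was 0.47. Aldoa, which splits fructose bisphosphate, ran from 0 to 38 UMIs per cell in the control (median 8) and from 2 to 70 in the mutant (median 32.5), with a log2 ratio of 2.08 (interval 1.91 to 2.26). Slc16a3, the lactate exporter MCT4, stood at 24.1 and 220 (log2 ratio 3.19, interval 2.59 to 3.83), Ldha at 1046 and 2250. Pfkfb4, with 24 and 3 UMIs, was the gene that went the other way (log2 ratio -1.80, interval -4.17 to -0.08).

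In cells with lung genes alone, all 17 HIF targets with enough UMIs were higher, 8 of them at least 2-fold (median 0.84), where 4.72% of all genes were. In cells with Sftpc, where the mutant side was 4 cells with 106257 UMIs in all, 12 of 15 were higher (median 0.94). That count takes any higher value, so it is not comparable with the 4.58% of all genes at least 2-fold higher there. The other epithelial cells had a median of 1.67 over 28 HIF targets, 22 of them at least 2-fold higher, and of 1.05 over glycolysis genes, where 6.85% of 14902 genes were at least 2-fold higher and 8.25% lower. Whether Nkx2-1 cells and other epithelial cells differed in this was not tested. Lists for proliferation, sterol synthesis and adhesion had medians of -0.32, 0.34 and -0.36.

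The list of immediate early and heat shock genes had a median of -0.09, with 5 of 11 genes higher and 6 lower, but its members parted. Hspa1a, an inducible heat shock chaperone, ran from 0 to 3 UMIs per cell in the control and from 0 to 50 in the mutant, that is 14.1 and 287 CPM (log2 ratio 4.35, interval 3.62 to 5.16). Its near-identical copy Hspa1b, whose reads are hard to keep apart from it, stood at 9.15 and 301. More than 3 UMIs of Hspa1a were found in 7 of 24 mutant cells and none of 42 control cells, and 3 of the 4 mutant cells with Sftpc were among them. In other epithelial cells Hspa1a stood at 35.1 and 406 (log2 ratio 3.53). Jun, an immediate early factor, lay the other way in Nkx2-1 cells, at 832 and 491. These genes moved with genotype beside the HIF and lung tip lists, and their part in those ratios was not tested.

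**Figure D5:**
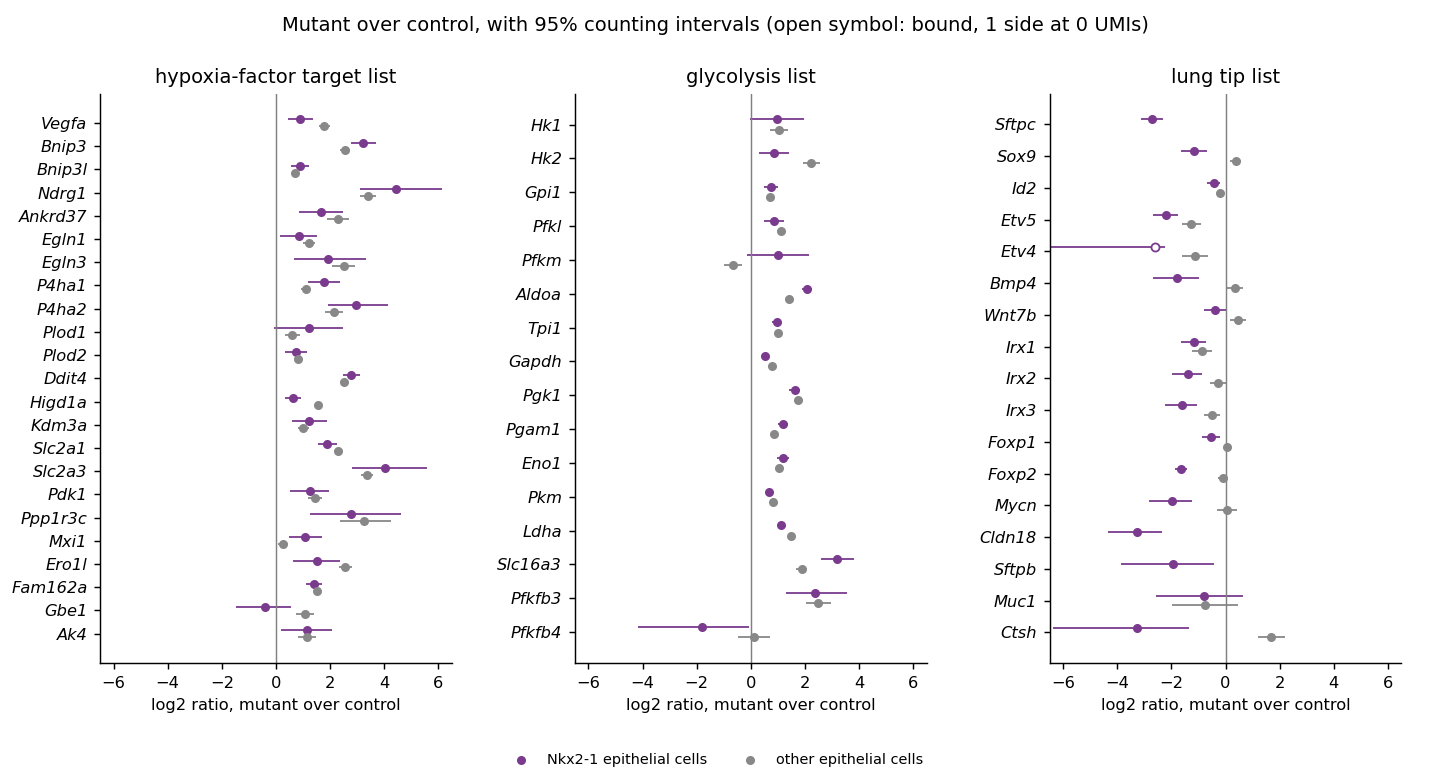
Log2 ratio of mutant over control CPM with 95% counting intervals for genes of the HIF target, glycolysis and lung tip lists, in Nkx2-1 epithelial cells (purple) and other epithelial cells (grey). In the first list 22 of 23 purple points lie right of 0, in the second 15 of 16, and in the last all 17 lie left of 0.

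Some of the largest mutant ratios came from single cells. One mutant cell with 1 Nkx2-1 UMI held 845 of 855 Afp, 711 of 713 Alb, 343 of 344 Apoa2 and 274 of 275 Trf UMIs, and had all 7 listed liver genes. The liver list summed to 9.98 CPM in the control, led by Apoa1 with Apoa2, Ttr and Fgb at 0, and to 4682 in the mutant, led by Afp with no gene at 0. Ttr, Apoc2, Ambp and Serpina6 were high through the same cell, and all 55 mutant UMIs of Cck lay in another. Igfbpl1, the remaining gene of the 10 highest, had 56 UMIs in 3 cells. The neuron list summed to 62.4 and 471 CPM, led by Map2 and Tubb3, with no gene at 0 in either library. In the mutant 2 cells had at least 5 of 8 neuron genes, with 28 and 20 UMIs of Stmn2. Six3, a forebrain factor, was in 3 of 24 mutant cells and none of 42 control cells, and these were the pair of neuron-gene cells and the cell with Oc90. All 3 also held Elavl3, a neuronal RNA-binding protein, with 8, 14 and 4 UMIs, and none held Foxa2. The lung mesenchyme list summed to 6.65 and 9.58, with Foxf1 at 0 in both. Without the liver and neuron cells, chosen after the values were seen, the medians were -1.49 for lung tip, 1.45 for HIF targets and 1.12 for glycolysis genes. With the third Six3 cell left out too, they were -1.43, 1.47 and 1.09.

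The 10 lowest genes were spread over more cells. Nckap5 had 380 UMIs in 36 control cells and 17 in 8 mutant cells (log2 ratio -3.28, interval -4.07 to -2.58). Ctnnd2, a catenin, had 448 in 40 and 26 in 10, and Efnb2, an ephrin ligand, 157 in 36 and 12 in 9. Cym had 145 UMIs in the control and none in the mutant, at least 21.0-fold lower. Cldn18, Zfp804b, Lama3, Fmod and Atp8a1 completed the set with Xist, which was found in 41 of 42 control cells and 5 of 24 mutant cells and moved with the sex of the cells. Only 2 mutant Nkx2-1 cells were female-like. Between these and the 41 female-like control cells the medians were 1.25 for HIF targets, 0.47 for glycolysis genes and -1.03 for lung tip genes.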

How the data were processed

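Single-cell RNA sequencing of eYFP-sorted cells (10x Genomics 5′ kit) was analysed from 1 control and 1 mutant library. The authors aligned reads to GRCm38 (mm10) with Cell Ranger 7.1.0, and the deposited values were raw UMI counts per gene and called cell, without normalization. Whether intronic reads were counted is not given in the sources used here. The libraries held 66935720 and 73915525 UMIs in 4505 and 5357 barcodes. Cells were kept with over 2000 but under 9000 genes and under 10% mitochondrial UMIs, following the study. Doublets were kept in the reported values.

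Members were chosen by the stated rule, and the members and gene lists were chosen with earlier results of these data known. For each gene the UMIs of a class of cells were summed within a library and scaled to 1000000 UMIs of that class (CPM). A gene was compared with at least 20 UMIs over both sides and called past 2-fold. Named genes were the 10 highest and 10 lowest log2 ratios with at least 100 CPM on a side and an interval beyond 1.5-fold (rule genes, split genes, mitochondrial genes and genes named as clones left out), and members of the lists. The rule was applied to members against others in the control, to mutant against control, and to Pax8/Foxe1 against lung cells, which replaced the planned lung against thyroid signature because the latter held 0 cells. Intervals (95%) were exact Poisson for levels, Clopper-Pearson for shares and, for ratios, conditional exact binomial, and they, with the floor of 3 counts for a 0, cover counting error only. A side at 0 entered a list median at that floor. Gene positions were those of GENCODE for GRCm38. Ratios were tested on UMI sums simulated with Poisson counting error and known folds, which leaves out the spread among cells. The alternatives were the Scrublet scores (scanpy 1.11.5), TMM (edgeR 4.0.16, R 4.3.3), median-ratio scaling, thinning to 5000 UMIs, other limits and other gates. Scripts ran in Python 3.11.15 with pandas 2.3.3, numpy 2.4.6, matplotlib 3.10.9 and scipy 1.17.1.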

Additional observations from a re-analysis of the deposited data

Results flagged for a closer look

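Nkx2-1 was also found in kept cells that did not meet the epithelial rule and entered no comparison above, 42 in the control and 61 in the mutant. These cells stood out as signal outside the measured set. Of the 42 control cells 27 held the neuron gene Elavl3, and of the 61 mutant cells 52 did. Sftpc was in 1 cell of each library and Pax8 in none. Their median depth was 14013 UMIs in the control and 16258 in the mutant, with a median of 2 and 4 UMIs of Nkx2-1.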

How the results depend on the processing

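For the main values 130 alternatives stayed within the counting interval and 12 moved. For single genes 401 stayed, 71 moved with their direction kept and 4 reversed. The share of Nkx2-1 cells in the epithelium moved to 23.4% in the control with at least 3 of 5 epithelial genes, to 62.5% and 18.3% among Foxa1/Foxa2 cells, and to 1.53% in the mutant among cells with Xist and no Y-linked UMI (2 of 131). The thyroid share of control cells was 8.82% after thinning, 11.9% with Sftpc alone and Pax8 alone, and 11.9% with Pax8 and Foxe1 both detected, and the lung share of mutant cells was 16.7% with Sftpc alone. The lung tip median over other epithelial cells was 2.06 after thinning in the control and 3.04 against Foxa-marked cells in the mutant. Mutant over control, the glycolysis median was 0.47 among cells with Xist and no Y-linked UMI and the lung tip median -0.70 among Sftpc cells. Sftpc cells also reversed Irx1 (0.022), Shh (0.18), Vegfa (-1.26) and Id1 (-1.69, a bound with 0 UMIs in 4 cells). Beyond the sets compared, the cause was not tested. Over the alternatives the HIF median ran from 0.84 to 1.5, glycolysis from 0.47 to 1.21 and lung tip from -1.90 to -0.70. Median-ratio scaling shifted all log2 ratios by -0.12, -0.11 and 0.01, and TMM by 0.04, -0.01 and 0.03, for the control, the mutant and the comparison of genotypes. Removing the highest Scrublet scores took 1 control and 4 mutant Nkx2-1 cells. The settings with Foxa1/Foxa2 cells, Sftpc cells, cells without liver or neuron genes or Six3, and Pax8 with Foxe1 were chosen after seeing the data.

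No paired analysis was possible because each genotype had 1 library, and leaving out a replicate was not possible for the same reason. The comparison of lung with thyroid signature as first planned was not run, since no cell had the latter. With 42 and 24 cells, genes under 20 UMIs were not compared, and 1 deep cell can set a ratio.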
